A study of Saccharomyces cerevisiae with 74 samples.

Results

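Described here are 40 mRNAs of Saccharomyces cerevisiae that encode the nuclear subunits of the mitochondrial respiratory chain and of the ATP synthase. They were chosen by name and role from 6551 protein-coding features with a read in at least 1 library, and all 40 passed the filter on low counts in every comparison. The mRNAs code for 13 subunits of the ATP synthase, 9 of complex IV, 9 of complex III, 4 of complex II, the 2 isoforms of cytochrome c and 3 NADH dehydrogenases.

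The respiratory chain of yeast takes electrons from NADH and succinate, passes them through ubiquinone, complex III and cytochrome c to complex IV, and pumps protons out of the mitochondrial matrix as it does so. Yeast has no proton-pumping complex I, and single-protein NADH dehydrogenases on either face of the inner membrane take its place. The ATP synthase lets protons flow back to make ATP, and because yeast on glucose ferments, many of these genes are repressed by glucose and activated on glycerol or ethanol.

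All cells were haploid BY4741 (MATa his3Δ1 leu2Δ0 met15Δ0 ura3Δ0) grown at 30 °C in synthetic medium with 2% glucose. They were harvested directly (control), moved by filtration to the same medium (mock), to medium with 2% glycerol and 2% ethanol in place of glucose (GE), or to medium at 42 °C (42C), in some samples with cycloheximide (CHX), a drug that arrests elongating ribosomes. RNA-seq of poly(A) RNA, taken after 16 min, covered wild type (3 control, 2 GE, 3 42C and 2 42C with CHX libraries), ski2Δ (2 control and 2 42C) and xrn1Δ (2 control and 2 42C). CRAC, which sequences RNA crosslinked by ultraviolet light to a tagged protein, covered the translation initiation factors eIF4B, Ded1 and eIF4A after 30 s or 16 min of GE and after 16 min of the other shifts. eIF4B (TIF3) carried its tag at the C terminus, and Ded1 and eIF4A at the N terminus. eIF4A was tagged at TIF1 alone, which is 1 of 2 genes for this protein. No RNA-seq library was mock-shifted, so that in RNA-seq the shift itself and the stress cannot be told apart. Libraries are named by their letter (RNA-seq) or number (CRAC), and RNA-seq libraries of a group were biological replicates by the study's methods. For CRAC no source used here says whether they came from separate cultures, so that its p-values measure the spread between these libraries. The CHX, ski2Δ and xrn1Δ libraries all fall among libraries H to S and the GE libraries among A to F, with wild-type control and 42C libraries in either set.

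RNA-seq was the deeper assay. Tagged CRAC libraries held 183689 to 4385132 counted reads, of which 206 to 16099 lay on the 40 mRNAs, whereas RNA-seq libraries held 168954 to 354287 such reads. The 4 untagged CRAC libraries held 60977 reads in all and 235 on these mRNAs, of which 188 were in library 20. No untagged read fell on 23 of the 40. Most of the reads lay on QCR9 (62 reads), NDE1 (35), CYT1 (24), QCR6 (23), ATP17 (18) and COX9 (18). Those of QCR9, NDE1 and ATP17 each came from 1 library. The deleted genes checked the strains: SKI2 had 5 to 14 reads in the ski2Δ libraries against 2540 to 7268 in wild-type control and 42C libraries, and XRN1 had 59 to 202 in xrn1Δ against 7053 to 21964. RNA-seq levels are given as reads per 10000 reads of the S. pombe RNA added to each sample as a spike-in, and CRAC values as reads per 1000000 counted reads (RPM).

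In unstressed wild-type cells the 40 mRNAs differed widely in level. Compared per kb of feature, the highest were ATP15 at 204, ATP2 at 191 and QCR6 at 159 reads per kb per 10000 spike-in reads, which placed them above 94.0%, 93.6% and 92.3% of mRNAs. ATP2 codes for the catalytic beta subunit of the F1 head of the ATP synthase and ATP15 for its epsilon subunit, while QCR6 codes for a small subunit of complex III. The lowest were SDH1 at 18.7, CYC7 at 9.44 and NDE2 at 0.784, above 43.0%, 14.8% and 0.794% of mRNAs. CYC7 and NDE2 are each the minor gene of a pair, beside CYC1 and NDE1, and reads that fitted several places equally well were placed at random by the authors. The summed level of the 40 mRNAs was 3049 ± 300.4 (SD, n = 3), or 0.618% ± 0.0229 of all mRNA reads. The spike-in was added to purified RNA, so that levels are relative to total RNA and a change in total RNA per cell is not seen.

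After 16 min without glucose 8 of the 40 mRNAs rose and 8 fell (edgeR quasi-likelihood test, Benjamini-Hochberg adjusted p below 0.05), while 58.8% of all tested mRNAs were called, 18.4% higher and 40.4% lower, so that the share of the 40 called higher was near that of all mRNAs. The falls depended on single libraries, with 2 lower without library D, 4 without H and 11 without A or C. No ATP synthase mRNA rose and 6 of 13 fell, with a median log2 change of -0.38, a share near that of all mRNAs called lower. In complex II SDH1 (log2 change 1.33 ± 0.19, SE), SDH4 (0.93 ± 0.18) and SDH2 (0.71 ± 0.18) were higher, and SDH3 was not called at 0.20 ± 0.19. Complex II oxidizes succinate, with SDH1 as the flavoprotein, SDH2 as the iron-sulfur subunit and SDH3 and SDH4 as the membrane anchors. In complex III QCR8 and QCR10 rose, and in complex IV the one call was COX9, which fell by 0.40 on the log2 scale. The median change of the 40 mRNAs was -0.13 and that of all 6319 tested mRNAs was -0.26. Scaled to total mRNA instead of the spike-in (TMM factors on mRNA reads), the median of all mRNAs moved to 0.01. On that scale 17 of the 40 were called higher and 4 lower, beside 2041 and 2149 of 6298 tested mRNAs. Libraries A to F alone, scaled to the spike-in, gave 12 and 7.

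The largest rise and the largest fall under GE were both in the cytochrome c pair, whose proteins carry electrons from complex III to complex IV. CYC7, the minor isoform, stood at 4.5, 6.19 and 7.00 in control libraries A, B and H and at 61.2 and 48.5 in GE libraries C and D. CYC1, the main isoform, stood at 34.6, 37.8 and 48.1 in control and at 20.6 and 15.8 in GE. Neither gene's groups overlapped, where 22.4% of all tested mRNAs lay wholly above control and 48.0% wholly below. The log2 changes were 3.22 ± 0.20 for CYC7 (adjusted p = 2e-49) and -1.14 ± 0.19 for CYC1 (adjusted p = 7.5e-09). Per length, CYC7 thus went from 0.135 ± 0.0154 times the CYC1 level (SD, n = 3) to 2.79 ± 0.0745 times (n = 2).

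The NADH dehydrogenases, which feed electrons from NADH into the chain, also differed among themselves. NDE2, a minor enzyme of the outer face of the inner membrane, was at 1.51, 1.54 and 1.48 in control and at 7.41 and 5.61 in GE (log2 change 2.11 ± 0.20). NDI1, the enzyme of the inner face, was at 47.1, 48.9 and 61.5 in control and at 192 and 158 in GE (1.74 ± 0.19). NDE1, the main enzyme of the outer face, was at 156, 167 and 158 in control and at 145 and 122 in GE, a difference that was not called (-0.26 ± 0.19, adjusted p = 0.24). ATP18, a small subunit of the Fo part of the ATP synthase, had the largest fall after CYC1, from 41.0, 45.5 and 55.5 to 30.1 and 24.2 (-0.80 ± 0.18, adjusted p = 4.1e-05). The COX5 pair, alternative forms of subunit V of complex IV, was not called in either member, at -0.34 ± 0.18 for COX5A and 0.21 ± 0.18 for COX5B.

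**Figure D1:**
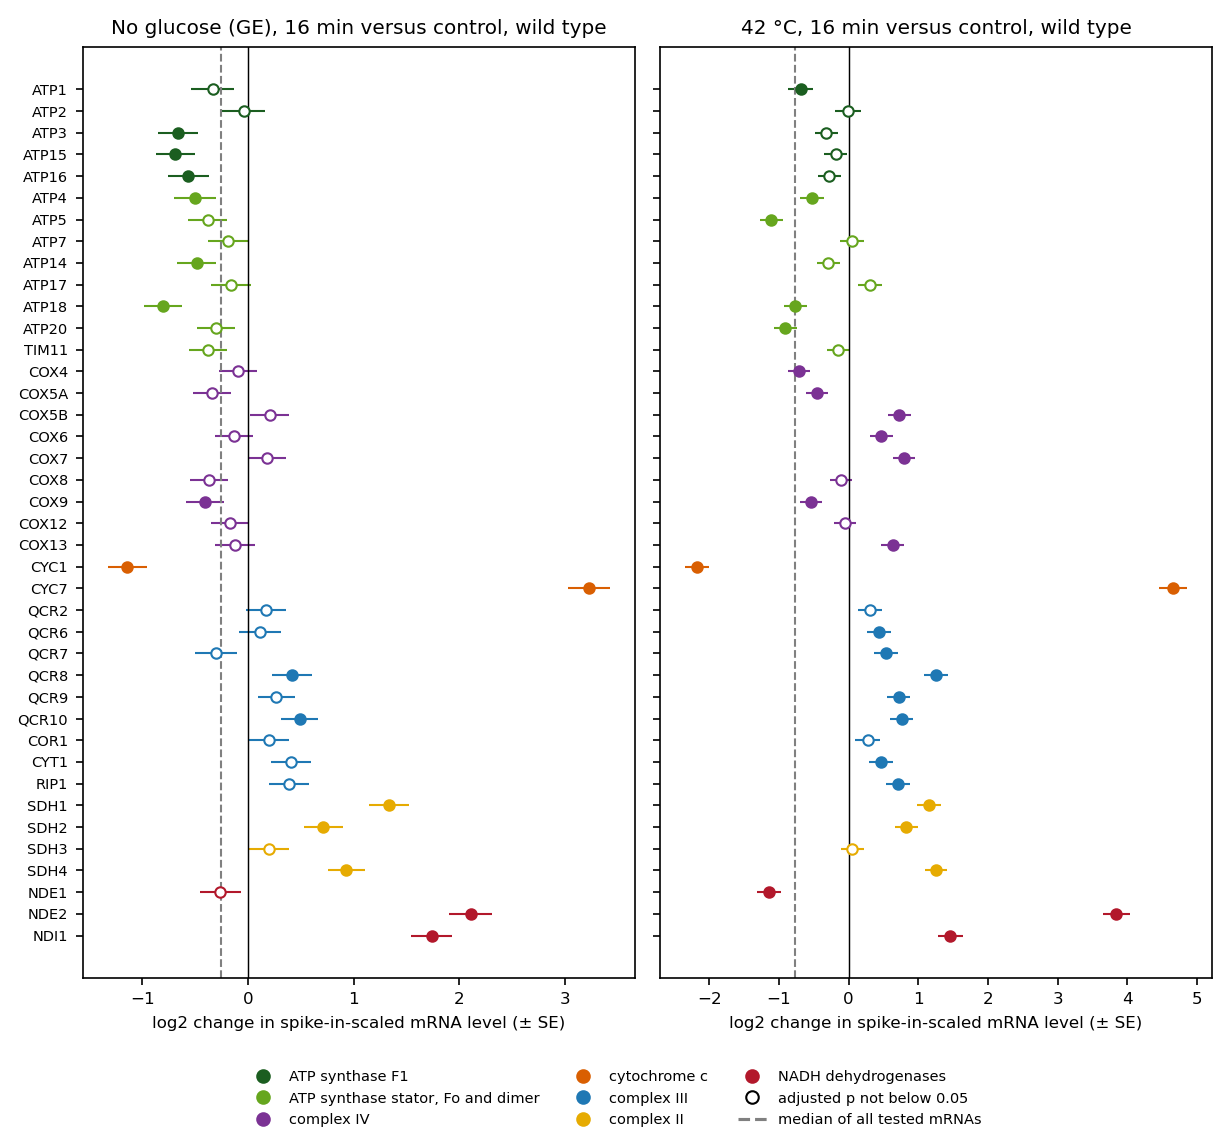
Log2 change (± SE, horizontal axis) in spike-in-scaled mRNA level of each of the 40 mRNAs in wild-type cells after 16 min of GE (left, 2 against 3 libraries) and of 42C (right, 3 against 3), with the mRNAs in rows coloured by role. Filled points passed the adjusted p of 0.05, open points did not, and the dashed line is the median of all 6319 tested mRNAs (-0.26 and -0.77); ATP synthase mRNAs lie below 0 with GE, and complex II and III mostly above 0.

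At 42 °C more of these mRNAs rose than fell, while most mRNAs of the cell fell. The summed level of all mRNAs per 10000 spike-in reads went from 492851 ± 31510 (SD, n = 3) to 376831 ± 29944 (n = 3), and that of the 40 from 3049 ± 300.4 to 3381 ± 179, so that their share of mRNA reads went from 0.618% ± 0.0229 to 0.900% ± 0.0595. Of the 40, 17 rose and 10 fell, where 80.6% of all tested mRNAs were called, 17.4% higher and 63.3% lower. The median change was 0.16 for the 40 and -0.77 for all, and 36 of the 40 lay above the latter. On the TMM scale the median of all mRNAs was 0.13. There 34 of the 40 were called higher and 2 lower, beside 2762 and 2344 of 6298 tested mRNAs. Libraries A to F alone gave 18 higher and 8 lower, and H to S alone, with 1 library a side in wild type, gave 7 and 12.

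By role, the calls at 42C were as follows. Complex III had 7 of 9 mRNAs higher and none lower, led by QCR8 (1.25 ± 0.17), QCR10 (0.76 ± 0.16) and QCR9 (0.72), which code for its small subunits, and RIP1 (0.71), the Rieske iron-sulfur protein. COR1 and QCR2, the core proteins, were at 0.28 and 0.31 and were not called. In complex II SDH4 (1.26 ± 0.16), SDH1 (1.16 ± 0.17) and SDH2 (0.83 ± 0.17) rose again, and SDH3 was at 0.05 ± 0.17 and not called. None of the 13 ATP synthase mRNAs rose and 5 fell, with ATP5 (-1.11 ± 0.16), a subunit of the stator that holds F1 to Fo, the lowest. Next were ATP20 (-0.91 ± 0.16) and ATP18 (-0.76 ± 0.16) of the Fo part, ATP1 (-0.69 ± 0.18), the alpha subunit of F1, and ATP4 (-0.52 ± 0.18), the stator subunit b. ATP5 had 73.9, 79.6 and 75.0 in control and 39.9, 36.1 and 30.2 at 42C, while ATP2, the partner of ATP1 in the F1 head, was at -0.01 and not called. Complex IV was divided, with COX7, COX5B, COX13 and COX6 higher, COX4, COX9 and COX5A lower and COX8 and COX12 not called. On the TMM scale the falls of ATP1, ATP4, ATP18, COX4, COX5A and COX9 turned into positive values (0.15 to 0.46), and that of ATP5 did not change sign.

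The cytochrome c pair and the NDE pair held the largest rises and the largest falls of the 40. CYC7 rose to 164, 145 and 134 at 42C (log2 change 4.65 ± 0.20, adjusted p = 7e-89) and CYC1 dropped to 7.50, 7.03 and 12.1 (-2.18 ± 0.17, adjusted p = 4.6e-34). Per length, CYC7 reached 16.5 ± 5.48 times the CYC1 level (SD, n = 3). The minor isoform of unstressed cells was thus the major cytochrome c mRNA in every stressed wild-type library.

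NDE2 rose to 23.3, 27.5 and 14.3 at 42C (3.84 ± 0.20) and NDE1 dropped to 74.6, 72.7 and 70.7 (-1.14 ± 0.17, adjusted p = 2.1e-10). NDE2 still made up less mRNA than NDE1, at 0.329 ± 0.0988 times its level per length against 0.0105 ± 0.000251 in control. NDI1 rose to 134, 105 and 194, with library I of the later set highest (1.46 ± 0.18). COX5B was at 31.1, 34.2 and 57.3 in control and at 69.4, 63.3 and 70.3 at 42C (0.73 ± 0.17), and COX5A went from 43.1, 49.0 and 64.8 to 41.8, 35.2 and 37.8 (-0.45 ± 0.16). The groups of either COX5 gene did not overlap, where 17.5% of all tested mRNAs lay wholly above control and 65.3% wholly below. The ratio COX5B to COX5A per length went from 0.827 ± 0.11 to 1.91 ± 0.111.

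**Figure D2:**
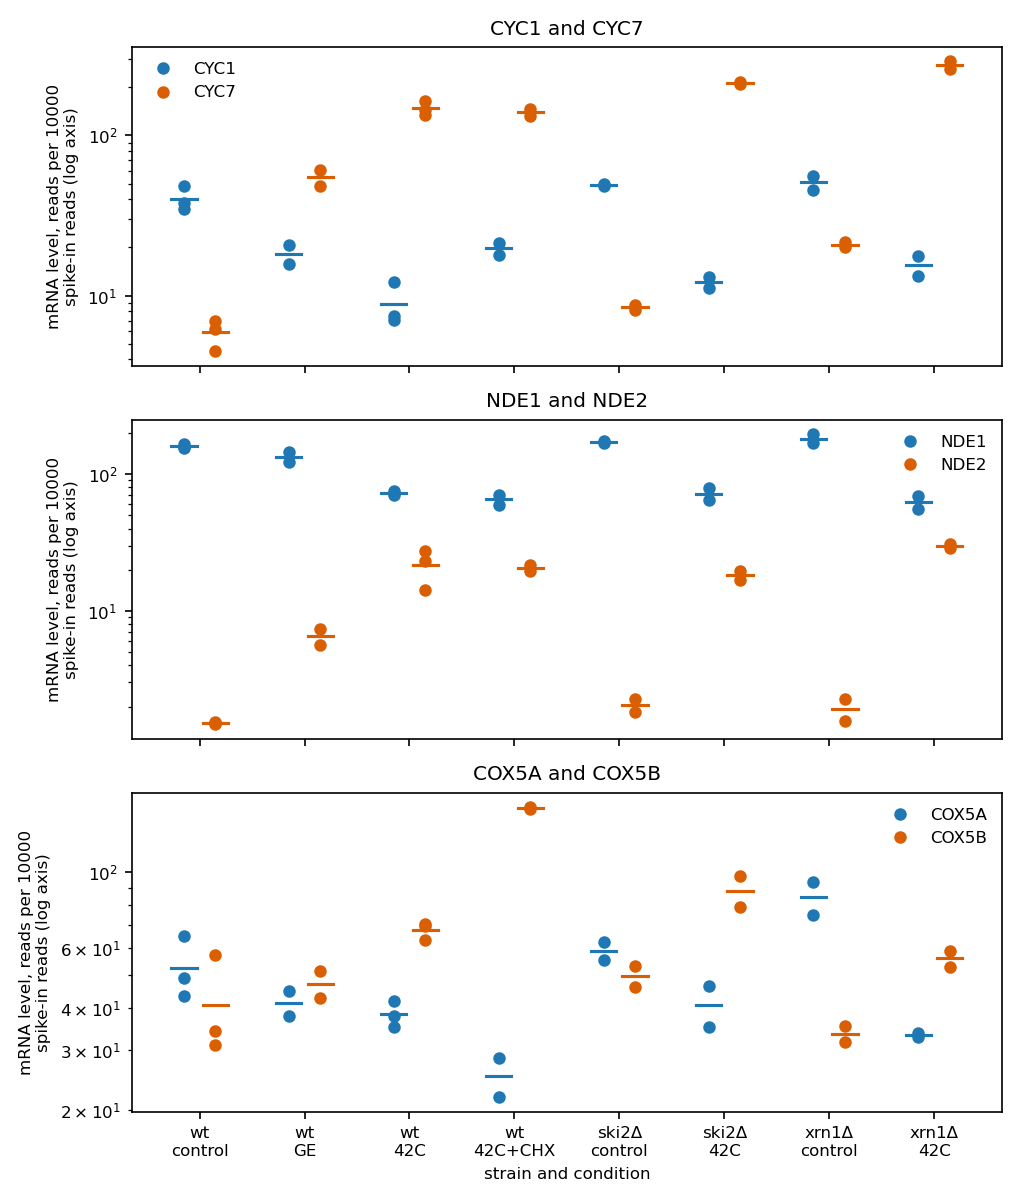
mRNA level in each RNA-seq library (points, log axis, reads per 10000 spike-in reads) and group mean (bars) for CYC1 and CYC7, NDE1 and NDE2, and COX5A and COX5B, by strain and condition (2 or 3 libraries each). CYC7 lies below CYC1 in all control libraries of the 3 strains and above it in all GE and 42C libraries, and COX5B at 42C with CHX (153 and 155) lies above all other values of that pair.

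Set directly against GE, heat left 11 of the 40 higher and 5 lower, with 69.7% of all tested mRNAs called, 11.4% higher and 58.3% lower, and medians of 0.21 for the 40 and -0.59 for all. On the TMM scale the split was 34 higher and 2 lower, beside 2209 and 2087 of 6298 tested mRNAs. NDE2 (1.73 ± 0.20) and CYC7 (1.43 ± 0.20) were the farthest above and CYC1 (-1.03 ± 0.18) and NDE1 (-0.88 ± 0.19) the farthest below. No complex II mRNA differed between the stresses by this test.

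Cycloheximide at 42 °C came with a rise of most mRNAs of the cell but not of most of the 40. With CHX the median of all tested mRNAs was 1.02 higher than at 42C alone and 78.8% were called higher and 2.88% lower (81.7% called). Of the 40, 4 were called higher and 11 lower, their median was -0.12, and 38 lay below the median of all. Scaled by TMM, 37 were called lower and none higher, beside 2045 lower and 2135 higher of 6298 tested mRNAs. The members called lower came from most roles: QCR10 (-0.85 ± 0.18), ATP2 (-0.78 ± 0.21), ATP3 (-0.68 ± 0.19), the gamma subunit at the core of F1, and COX5A (-0.60 ± 0.18) were the lowest. QCR10 went from 52.6, 47.0 and 39.3 at 42C to 22.7 and 28.6 with CHX, close to its control values of 24.8, 25.9 and 31.4. ATP2 went from 393, 357 and 350 to 206 and 222, below its control values of 369, 380 and 356. Without library J, 4 of the 40 were called higher and 4 lower, and libraries H to S alone gave 4 and 6.

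The members called higher with CHX were COX5B, CYC1, ATP18 and ATP4, and on the TMM scale the values of ATP4 and ATP18 turned negative (-0.55 and -0.15). COX5B, the subunit V form that is known to be expressed when oxygen is low, went from 69.4, 63.3 and 70.3 to 153 and 155 (1.19 ± 0.18). CYC1 went from 7.50, 7.03 and 12.1 to 18.1 and 21.3 (1.15 ± 0.18), still below its control values. CYC7 and NDE2 were both far above their control values with CHX too, at 132 and 146 for CYC7 (-0.09 ± 0.19) and 19.5 and 21.6 for NDE2 (-0.08 ± 0.19), and neither was called against 42C alone. No wild-type control with CHX at 30 °C was analysed here, so that the drug's own effect and its effect on the response to heat cannot be told apart.

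Other nuclear genes of the pathway, which make cofactors, assemble the complexes or regulate them, were counted for comparison. Of 87 such genes 81 were tested. At 42C against control 19 of them rose and 40 fell (median -0.32), beside 17.4% and 63.3% of all tested mRNAs. With CHX against 42C 50 rose and 9 fell (median 0.71), beside 78.8% and 2.88% of all. Complex III and cytochrome c assembly genes fell in 9 of 11 cases at 42C and rose in 10 of 11 with CHX, and of 22 complex IV assembly genes 11 fell and 15 rose. The genes that encode assembly factors and those that encode the subunits thus gave different counts in the same libraries, and the difference between the lists was not tested. In GE 28 of the 81 rose and 16 fell (median 0.08), beside 18.4% and 40.4% of all.

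Loss of Xrn1, the cytoplasmic 5′ to 3′ exonuclease, raised most of the 40 mRNAs in unstressed cells. Against wild type 31 were called higher and none lower, where 54.4% of all tested mRNAs were called, 42.6% higher and 11.8% lower, and the medians were 0.71 for the 40 and 0.32 for all. Their summed level was 4957 ± 30.7 (SD, n = 2) against 3049 ± 300.4 in wild type. Scaled by TMM, 24 were higher and 4 lower, beside 1957 and 2262 of 6298 tested mRNAs. In libraries H to S alone, with 1 wild-type control library, both medians were smaller, at 0.53 for the 40 and 0.25 for all. The summed level of the 40 in that control (H) was 3379 against 2790 and 2978 in A and B.

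The rise spread over all complexes. It was called in 10 of 13 ATP synthase mRNAs, 8 of 9 of complex IV, 8 of 9 of complex III and 3 of 4 of complex II. CYC7 (1.82 ± 0.19) and CYT1 (1.65 ± 0.19), which codes for cytochrome c1 of complex III, were the farthest above wild type, followed by QCR9 (1.64 ± 0.18), QCR7 (1.59 ± 0.19) and ATP7 (1.47 ± 0.19), a stator subunit. CYT1 was at 65.7, 67.1 and 72.1 in wild type and at 198 and 230 in xrn1Δ. QCR7 was at 70.4 and 77.1 in control libraries A and B, 114 in H, and 278 and 249 in xrn1Δ. CYC1, COX5B, ATP2 and NDE1 were among the 9 not called, at 0.34, -0.28, 0.08 and 0.18.

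At 42 °C fewer of the mRNAs differed between xrn1Δ and wild type, with 15 higher and 2 lower beside 53.9% of all tested mRNAs called, 41.3% higher and 12.6% lower. The medians were 0.21 for the 40 and 0.29 for all. On the TMM scale 9 were higher and 14 lower, beside 1910 and 2146 of 6298 tested mRNAs. Libraries H to S alone gave 11 higher and none lower. SDH1 had 104, 87.5 and 131 in wild type and 238 and 294 in xrn1Δ (1.31 ± 0.19, adjusted p = 1e-10). SDH3, which was not called with heat in wild type, had 70.9, 70.0 and 57.1 against 147 and 158 (1.21 ± 0.18). ATP2 had 393, 357 and 350 in wild type and 216 and 266 in xrn1Δ (-0.60 ± 0.21, adjusted p = 0.0084), and SDH4 had 70.8, 67.5 and 59.6 against 45.8 and 50.2 (-0.46 ± 0.18, adjusted p = 0.022). The groups did not overlap for any of these 4 genes, where 47.0% of all tested mRNAs lay wholly above wild type and 15.7% wholly below. Of complex II, 2 subunits were thus above wild type and 1 below it.

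Within xrn1Δ, heat raised 8 of the 40 and lowered 19, with a median of -0.37, beside 80.4% of all tested mRNAs called, 13.0% higher and 67.5% lower, and a median of -0.97 for all. On the TMM scale the split was 23 higher and 5 lower, beside 2189 and 2358 of 6298 tested mRNAs. The heat response of xrn1Δ minus that of wild type was called for 12 of the 40, all of them lower, against 24.7% of all tested mRNAs called, 12.6% lower. Among the 12 were 5 mRNAs of complex IV (COX5A, COX6, COX7, COX8 and COX12), 3 of complex III, CYC7, SDH4 and 2 of the ATP synthase. The lowest was TIM11, which codes for the dimer subunit e of the ATP synthase, with 43.4, 47.0 and 64.8 in wild-type control, 50.8, 48.3 and 40.7 in wild type at 42C, 108 and 97.3 in xrn1Δ control and 40.0 and 43.3 in xrn1Δ at 42C (difference -1.15 ± 0.26, adjusted p = 0.00011). Among these groups TIM11 was thus highest in xrn1Δ control, and the others lay between 40.0 and 64.8. The call depended on the libraries: without control library M of xrn1Δ 5 of the 40 were called, without library A, B, E or N 8, without wild-type control library H 18, and with libraries H to S alone none (median difference -0.37).

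Loss of Ski2, a helicase that works with the exosome in decay from the 3′ end, gave few calls. None of the 40 was called in unstressed cells by edgeR or DESeq2, with 4 at an unadjusted p below 0.05, and 0.253% of all tested mRNAs were called, 0.222% higher. At 42 °C QCR9 (0.61 ± 0.18, adjusted p = 0.032) and ATP14 (0.59 ± 0.18, adjusted p = 0.049) were higher than in wild type, with 2.18% of all tested mRNAs called, 1.82% higher and 0.364% lower. QCR9 had 59.2 and 59.2 in ski2Δ and 41.0, 34.7 and 40.4 in wild type. Neither call held when any 1 of libraries E, F, L or Q was left out, or with libraries H to S alone, and 5 of the 40 were called without library I. Within ski2Δ heat raised 16 and lowered 10 of the 40 beside 15.0% and 65.0% of all tested mRNAs. CYC7 was at 4.64 ± 0.25 and CYC1 at -2.0 ± 0.20. On the TMM scale 35 of the 40 were higher and 2 lower, beside 2586 and 2320 of 6298 tested mRNAs. The heat response of ski2Δ minus that of wild type was called for none of the 40 by edgeR or DESeq2, with 1 at an unadjusted p below 0.05 (0.0317% of all called).

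**Figure D3:**
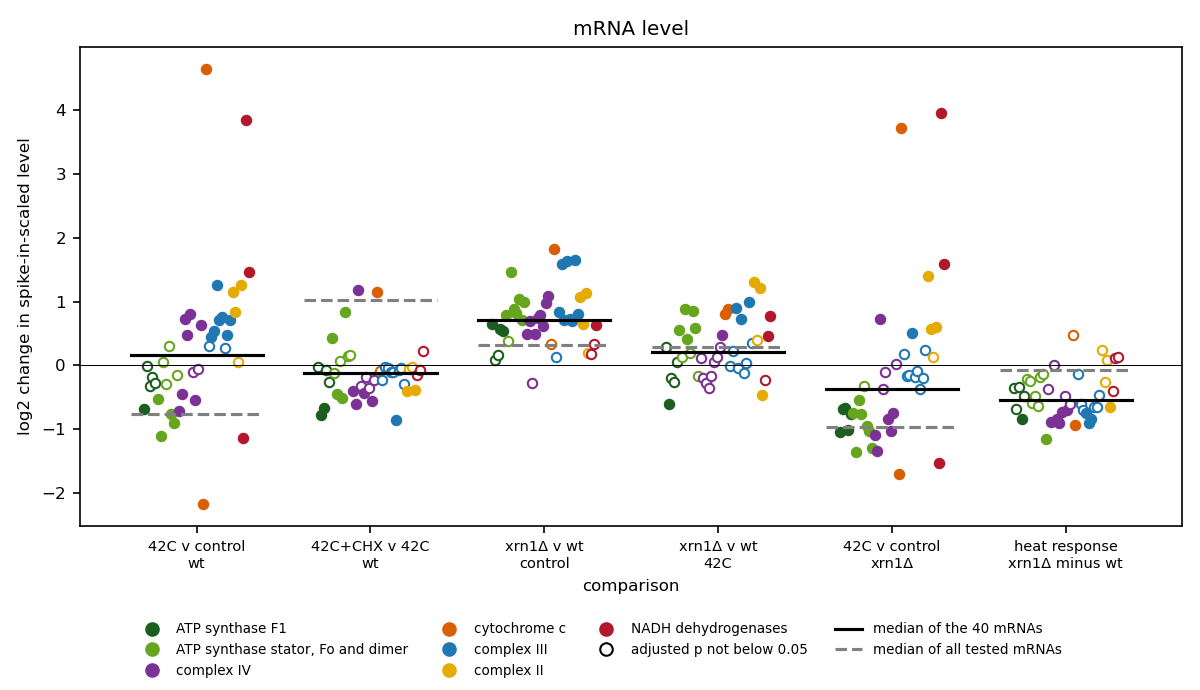
Log2 change in spike-in-scaled mRNA level (vertical axis) of the 40 mRNAs in 6 RNA-seq comparisons, each point an mRNA coloured by role and filled where the adjusted p was below 0.05. The solid line is the median of the 40 and the dashed line that of all tested mRNAs; the medians stand at 0.16 and -0.77 for wild type at 42C and at -0.12 and 1.02 for CHX.

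The CRAC libraries show which of these mRNAs were crosslinked to the initiation factors, of which eIF4B is the partner of the helicase eIF4A. In unstressed cells eIF4B libraries held the 40 mRNAs at a summed 6182 ± 1168 RPM (SD, n = 4), Ded1 libraries at 4743 ± 1182 (n = 3) and eIF4A libraries at 3035 ± 1008 (n = 6), or 0.927% ± 0.139, 0.833% ± 0.0621 and 0.821% ± 0.145 of mRNA reads. The few mRNA reads of the untagged libraries held them at 1.39% ± 0.371 (n = 4), from 2 to 188 reads on the 40 per library. Such a share by itself thus does not mark binding. The mRNAs with the most eIF4B reads over control and mock libraries were ATP2 (782 RPM), ATP4 (492) and ATP1 (383). Binding was also divided by the RNA-seq level of wild-type control cells, for 39 of the 40, since NDE2 was left out for its low RNA level. Among the 39, eIF4B binding was highest for CYC7 and COX5B, above 99.6% and 99.1% of 5235 mRNAs, and lowest for COX4, above 4.47%. CYC7 was also high in this ratio for Ded1, above 99.4% of 5240 mRNAs. That value leans on control library 65, with 118 RPM where the others had 33.1 and 16.9. For eIF4B and Ded1 CYC7 and COX5B thus had more bound reads per mRNA than CYC1 and COX5A, whereas for eIF4A CYC7 (above 63.9% of 5212 mRNAs) was below CYC1 (72.2%). The eIF4A value of CYC1 leans on control library 52, with 169 RPM where the next library had 36.1. The order of the pair for eIF4A therefore rests on 1 library. These ratios describe different strains and assays and were not tested.

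No member was called between eIF4B and Ded1 control libraries by edgeR (5 at an unadjusted p below 0.05, 3 called by DESeq2, 1.6% of all tested mRNAs called). The median of eIF4B against Ded1 was 0.30 for the 40 and -0.35 for all, and 33 of the 40 lay above the latter. The mock shift gave no call for any factor by edgeR or DESeq2, with 0.036% of all tested mRNAs called for eIF4B and none for Ded1 and eIF4A, and with none, 1 and 1 of the 40 at an unadjusted p below 0.05. The 40 mRNAs made up 0.647% to 0.849% of mRNA reads in eIF4B mock libraries and 0.781% to 1.09% in the controls, ranges that overlap, and the median change was -0.41 for the 40 against 0.00 for all.

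Within 30 s of GE the eIF4B reads on the 40 mRNAs dropped from 6182 ± 1168 RPM to 1135 ± 62.5 (SD, n = 2), as the share of all mRNA in the libraries dropped from 66.5% ± 3.64 to 16.1% ± 1.12. Of the 40, 12 were called lower and none higher, where 10.7% of all tested mRNAs were called lower and 0.018% higher, and the median change was -2.81 against -2.24 for all. Of the 12, 8 were ATP synthase mRNAs (ATP1, ATP2, ATP4, ATP5, ATP7, ATP15, ATP17 and ATP18), and the others were COX7, QCR7, QCR9 and NDI1. As a share of mRNA reads the 40 were at 0.707% ± 0.0105, beside 0.724% ± 0.109 in mock and 0.927% ± 0.139 in control. On the TMM scale none of the 40 and none of the 5494 tested mRNAs was called, and the medians were -0.87 and -0.26. The calls are thus of a fall in RPM that most mRNAs shared. No call was left without library 72 or 73, each of which leaves 1 library at 30 s.

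ATP2 had 1102, 1241, 682 and 572 RPM in eIF4B control libraries 08, 21, 26 and 71, 942, 431 and 502 in mock libraries, 102 and 244 after 30 s of GE and 313, 206 and 225 after 16 min. ATP4 had 597, 676, 379 and 437 in control, 453, 382 and 522 in mock, 62.3 and 44.3 after 30 s and 5.11, 58.0 and 41.1 after 16 min. For both mRNAs every GE library lay below every control and mock library. How many of all mRNAs have CRAC groups that do not overlap was not counted, here or below. The untagged libraries held 11 reads of ATP2 and 9 of ATP4. COX7 and QCR9 had no read in the 2 libraries of 30 s, against 111 and 171 reads in control. They were at least 16.1-fold and 24.8-fold lower in summed RPM, with the floor set at 3 reads over the group. With 1 control library left out the lowest bounds were 11.6-fold and 23.5-fold. COX7 had 73.5, 7.84, 13.7 and 23.5 RPM in control and 12.1, 0 and 2.37 in mock. QCR9 had 33.1, 38.6, 36.6 and 31.0 in control and 24.3, 11.5 and 9.48 in mock, so that mock too lay below control. The bounds are against control alone. NDI1 had 1 read in the libraries of 30 s. QCR9 is also the mRNA with the most reads in untagged cells, and the part of such reads in its control value was not tested.

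After 16 min of GE the eIF4B reads on the 40 mRNAs were at 1670 ± 286 RPM (SD, n = 3), and 12 were called lower and none higher, beside 18.3% of all tested mRNAs called, 17.5% lower and 0.792% higher. The median was -2.16 against -1.75 for all. Of the 12, 10 were ATP synthase mRNAs (ATP1, ATP2, ATP3, ATP4, ATP5, ATP7, ATP14, ATP15, ATP16 and ATP18), and the others were COX5B and SDH2. The 5 mRNAs of the F1 head were all called, whereas no mRNA of complex III, cytochrome c or the NADH dehydrogenases was. Their median log2 changes were -2.73, -1.46, 0.58 and -1.05, in that order. Most mRNAs of the roles without a call had fewer eIF4B reads in control and mock than any of F1. A missing call thus does not mark a missing fall. ATP15 had 198, 335, 283 and 208 RPM in control, 253, 230 and 145 in mock and 1.70, 37.6 and 0 after 16 min (log2 change -4.17 ± 0.96, adjusted p = 0.0020). The change of ATP4 was -3.88 ± 0.68. COX5B had 235, 361, 266 and 326 in control, 371, 197 and 211 in mock and 6.81, 51.7 and 18.1 after 16 min (-3.49 ± 0.72, adjusted p = 0.00058), while its mRNA level was not called in GE. Without library 27 5 of the 40 were called, and without library 09 or 21 7 were. On the TMM scale none was, beside 63 higher and 48 lower of 5494 tested mRNAs.

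At 42 °C eIF4B binding fell less for the 40 mRNAs than for the median mRNA. The summed value was 4026 ± 525 RPM (SD, n = 4) as the mRNA share of the libraries dropped to 29.8% ± 3.44, so that the 40 made up 1.35% ± 0.0926 of mRNA reads against 0.927% ± 0.139 in control. The groups did not overlap in this share (1.22% to 1.44% against 0.781% to 1.09%), and their share in RNA-seq was also higher at 42C. Untagged libraries, with 2 to 188 reads on the 40 in each, held them at 1.39% ± 0.371 (n = 4). The higher share at 42C thus does not by itself mark retained binding. Of the 40, 1 was called higher and 3 lower, beside 25.9% of all tested mRNAs called, 2.39% higher and 23.5% lower, and the medians were -0.64 and -1.45. With TMM factors 4 were higher and none lower, beside 211 and 585 of 5494 tested mRNAs. Without the shallow libraries 23 and 56, 1 was higher and 1 lower. In library 98 of 42C counted reads were 130% of mapped reads, so that its base of RPM differs from that of the controls. With mapped reads as library size 2 were higher and 2 lower, beside 141 and 1168 of 5573 tested mRNAs, and 3 of the 4 calls were kept.

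CYC7 was the mRNA called higher, with 119, 37.3, 53.8 and 15.5 RPM in control and 374, 392, 338 and 242 at 42C (2.59 ± 0.76, adjusted p = 0.0084), and it had no read in untagged cells. ATP5 went from 259, 247, 224 and 213 to 0, 54.4, 63.7 and 65.0 (-2.31 ± 0.74, adjusted p = 0.016). ATP4 went from 597, 676, 379 and 437 to 133, 201, 153 and 121 (-1.78 ± 0.56, adjusted p = 0.013). ATP1 was the other mRNA called lower, at -1.48 ± 0.56. The 42C and control libraries did not overlap for any of the 4, and each moved in the direction of its spike-in-scaled mRNA level at 42C, which turned positive for ATP1 and ATP4 on the TMM scale.

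**Figure D4:**
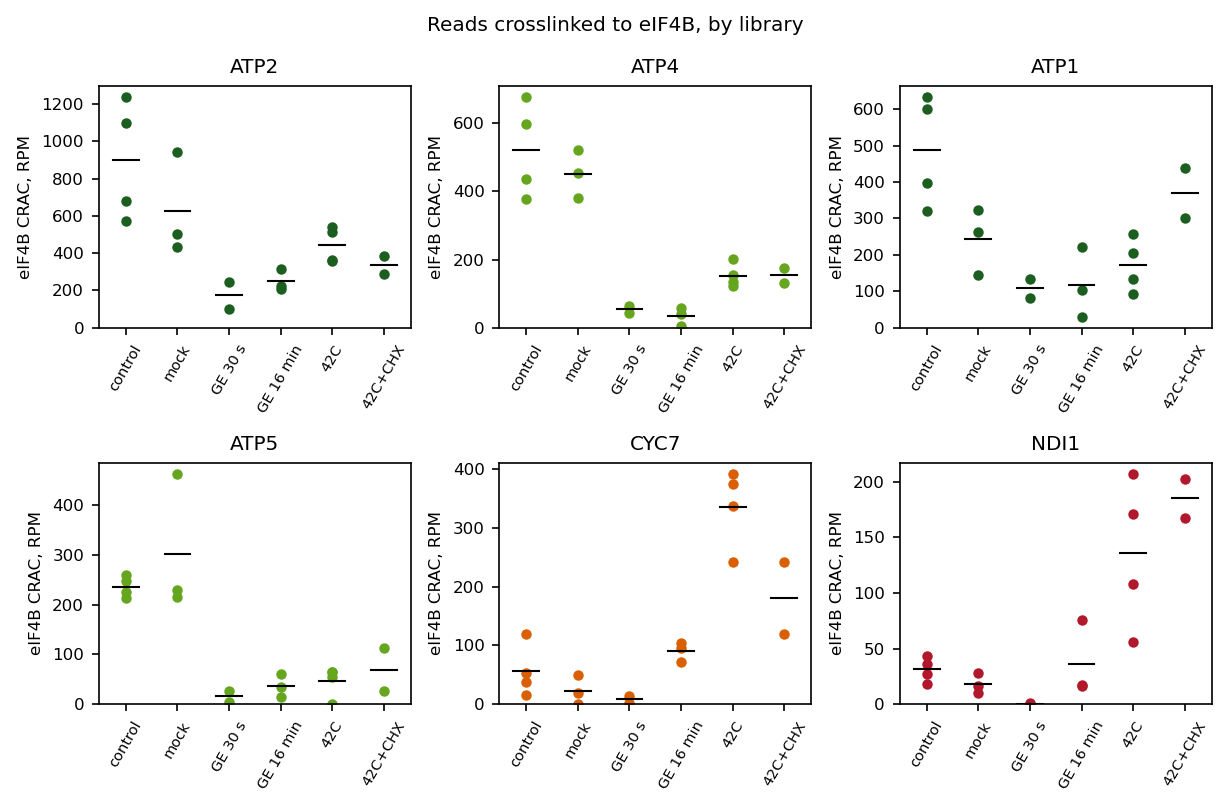
Reads crosslinked to eIF4B in each library (points, RPM) and group means (bars) for ATP2, ATP4, ATP1, ATP5, CYC7 and NDI1 in control, mock, GE for 30 s and 16 min, 42C and 42C with CHX (4, 3, 2, 3, 4 and 2 libraries). The ATP synthase mRNAs are lower with GE, and CYC7 lies between 242 and 392 RPM at 42C and between 15.5 and 119 in control.

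Adding CHX at 42 °C gave no call among the 40 for eIF4B by edgeR or DESeq2, with none at an unadjusted p below 0.05, beside 7.4% of all tested mRNAs called. The median was 0.21 for the 40 and 1.24 for all, and 39 of the 40 lay at or below the latter. Both CHX libraries and library 98 of 42C were counted on a later annotation, with tRNA at 5.44% to 12.9% of counted reads against 50.1% to 54.9% in the other 42C libraries. Counted reads were 119% to 130% of mapped reads in the former and 95.4% to 96.8% in the latter, so that the base of RPM differs between them. Against library 98 alone the medians were -0.25 and 1.18, and without libraries 23 and 56 they were -0.01 and 1.00, so that the median of the 40 changed sign. Their summed value was 4002 ± 160 RPM (SD, n = 2), next to 4026 ± 525 without CHX. The mRNA share of the libraries was 46.0% ± 5.02 with CHX and 33.1% in library 98 of the same annotation. Their share of mRNA reads was therefore 0.877% ± 0.130. CYC7 had 242 and 120 RPM with CHX and NDI1 202 and 168.

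Ded1, an RNA helicase that helps the ribosome scan from the cap, gave fewer calls on these mRNAs. Of the 40, 1 was called lower after 30 s of GE (ATP1), 1 lower after 16 min (COX9) and 1 higher and 1 lower at 42C (NDI1 and NDE1), beside 8.16%, 3.9% and 26.8% of all tested mRNAs called. The medians were -0.31, -0.43 and 0.02 for the 40 against -0.97, -0.71 and -0.82 for all, with 29, 25 and 33 of the 40 above the median of all. NDI1 had 56.5, 65.2 and 26.8 RPM in control and 152, 216 and 191 at 42C (1.89 ± 0.57, adjusted p = 0.015). NDE1 had 298, 276 and 628 in control and 99.1, 141 and 206 at 42C (-1.43 ± 0.41, adjusted p = 0.0099). This pair of enzymes moved apart as their mRNA levels did, and neither gene's groups overlapped.

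COX9 had 142, 151 and 173 RPM in Ded1 control and 33.1, 38.5 and 45.7 after 16 min of GE (-1.99 ± 0.48, adjusted p = 0.020). ATP1 had 450, 479 and 764 in control and 52.8 and 233 after 30 s (-1.97 ± 0.59, adjusted p = 0.039). Both groups of each gene stood apart, but untagged cells held 18 reads of COX9 and 35 of NDE1, whose part was not tested. The call of NDI1 was lost without library 63 or 65, that of NDE1 without 60 or 65, that of ATP1 without 61, 65 or 69, and that of COX9 without 59, 61, 62 or 65. Without library 70 3 of the 40 were called after 30 s, and without library 67 2 after 16 min. With TMM factors 7 of the 40 were called higher and none lower at 42C, beside 540 and 819 of 5799 tested mRNAs. CYC7 had 33.1, 16.9 and 118 RPM in control and 128, 138 and 169 at 42C, above every control library but not called.

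eIF4A, the helicase that unwinds the mRNA's 5′ end with eIF4B as its partner, gave calls at 42C alone. None of the 40 was called after 30 s or 16 min of GE, with 4 at an unadjusted p below 0.05 in each, 3 and 1 called by DESeq2, and none and 0.144% of all tested mRNAs called. At 42C 2 were called lower, beside 7.52% of all tested mRNAs called, 6.86% lower and 0.659% higher. The medians were 0.04 for the 40 and -2.15 for all. The 2 mRNAs called were ATP3 and ATP20, with no read in any of the 4 libraries at 42C. Against 460 and 493 reads in the 6 control libraries they were at least 43.0-fold and 46.1-fold lower. Without control library 11, which holds all but 74 of the ATP20 reads, the bound for ATP20 is 8.55-fold, and the lowest bound for ATP3 with 1 control library left out is 29.8-fold. ATP20 had 338 RPM in control library 11 and 0 to 27.9 in the other 5, and ATP3 had between 0 and 165 with a median of 44.8. Leaving out library 11, or any 1 of the 4 libraries at 42C, left no call, and leaving out 13, 18 or 80 left 1. In GE for 16 min TIM11, COX4 and CYC7 had no read, against 225, 47 and 49 reads in control, and none of them was called. CYC7 had no read in the eIF4A mock libraries either, and without control library 80 its control reads number 18.

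**Figure D5:**
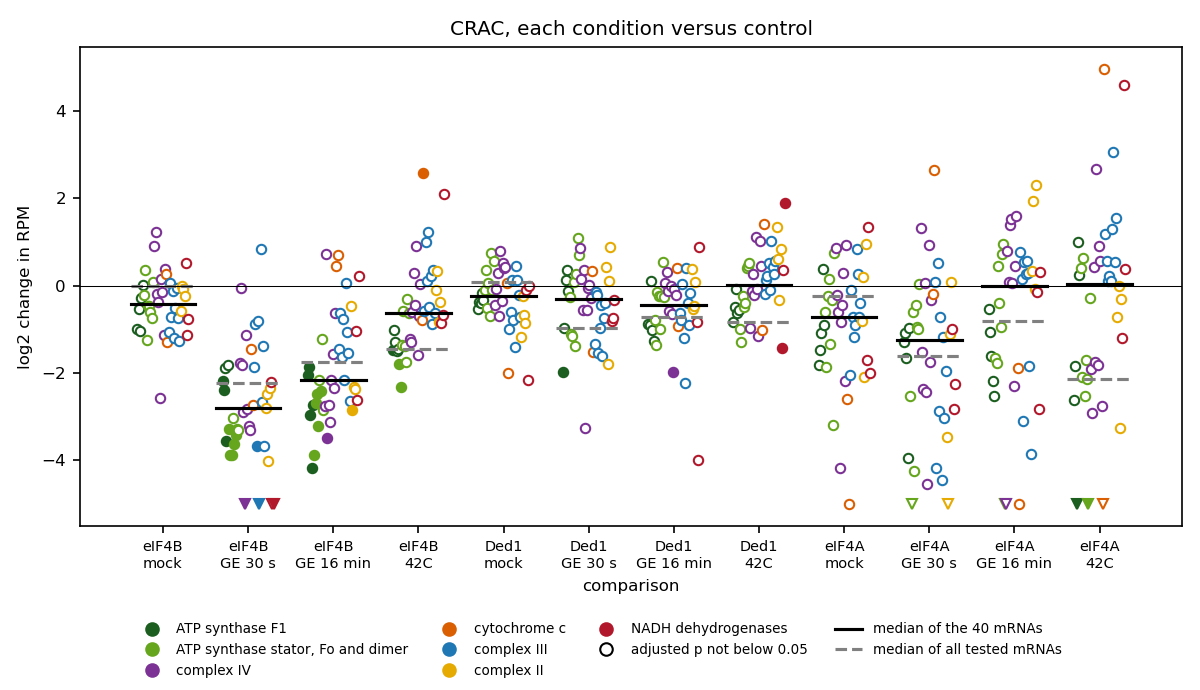
Log2 change in RPM (vertical axis) of each of the 40 mRNAs for eIF4B, Ded1 and eIF4A in mock, GE for 30 s and 16 min, and 42C against control, coloured by role and filled where the adjusted p was below 0.05. Solid and dashed lines are the medians of the 40 and of all tested mRNAs, and triangles mark fitted values beyond the scale of 5, which come from groups with no or 1 read; at 42C the median of the 40 lies above that of all for each factor (-0.64 and -1.45, 0.02 and -0.82, 0.04 and -2.15).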

How the data were processed

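CRAC (56 libraries, 4 of them untagged) and spike-in RNA-seq (18 libraries) were deposited as raw read counts per feature. For CRAC the authors collapsed PCR duplicates, used Novoalign on an intronless genome (build EF4.74), placed reads with several best sites at random and counted the sense strand with pyReadCounters. For RNA-seq the authors aligned to S. cerevisiae and S. pombe together and counted features on the reverse strand of each read. The deposited RPKM values served for feature lengths alone, of which 99.98% were whole within 0.05 nt. Libraries 97 to 99 were counted on a later annotation. Rows that name no gene held at most 0.0181% of counts and were left out.

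Counts were tested with edgeR 4.0.16 in R 4.3.3 by the quasi-likelihood test (two-sided) on all protein-coding features that passed filterByExpr (minimum count 10, minimum total 15), with Benjamini-Hochberg adjustment and calls at an adjusted p below 0.05. Library size was all counted sense reads for CRAC, with 1 fit per factor, and the S. pombe reads (531145 to 990246 per library) for RNA-seq, with all 18 libraries in 1 fit. Several comparisons share control libraries. eIF4A library 51, whose title and description differ, was placed at 30 s by its description. Floors of 3 reads cover counting error alone.

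Alternatives were DESeq2 1.42.0, TMM factors on mRNA reads, no filter on low counts, cDNA counts (unique sequences), a term for the set of libraries, and each library left out in turn. Libraries A to F or H to S alone, mapped reads as library size, and eIF4B without the shallow libraries 23 and 56 were added after the data were seen. The members and gene lists were chosen with earlier results of these data known. Values of every library are given for the gene pairs and NDI1, for the called members with the largest changes in each comparison, for the 3 mRNAs with the most eIF4B reads, and for some further members chosen after their values were seen. The fits were tested on simulated data, and no genome sequence was used here.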

Additional observations from a re-analysis of the deposited data

Results flagged for a closer look

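In 18 of 108 groups of 4 or 6 libraries looked at, 1 library stood far from the others, where chance flags about 1 in 20 groups of normally distributed values. Many of these groups hold libraries at or near 0 RPM, to which that rate need not apply. Of these groups 1 is of eIF4B and 17 are of eIF4A. CYC1 had 169 RPM in control library 52 (the next was 36.1), 28.3 in mock library 17 (the other 3 at 0) and 47.2 in library 14 of GE for 16 min (the other 3 at 0). NDE2 had 22.2 RPM in control library 76 (the next was 1.23), 42.2 in mock library 77 (the other 3 at 0) and 1.5 in library 19 of GE for 16 min (the other 3 at 0). In library 54 of 42C COX5B had 193 RPM (the next was 8.16) and NDE1 had 153 (the next was 16.0). The 1 group of eIF4B is ATP5 at 42C, with 0 RPM in library 23 (the next was 54.4). In eIF4A ATP5 had 80.8 RPM in library 12 of GE for 16 min (the next was 5.98) and 69.4 in library 83 of 42C (the next was 1.23). ATP20 had 338 RPM in control library 11 (the next was 27.9) and 25.7 in mock library 81 (the next was 1.28). COX7 had 49.8 RPM in control library 13 (the next was 9.03), 20.7 in mock library 17 (the next was 1.28) and 254 in library 15 of 42C (the other 3 at 0). QCR9 had 43.4 RPM in mock library 17 and 98.7 in library 19 of GE for 16 min, with the other 3 of each group at 0.

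For 12 mRNAs the heat response of xrn1Δ differed from that of wild type by edgeR's quasi-likelihood test of the interaction, with adjusted p between 0.00011 and 0.043. The differences on the log2 scale were -1.15 for TIM11, -0.93 for CYC7, -0.91 for COX7, -0.91 for QCR9, -0.89 for COX5A, -0.85 for COX6, -0.85 for QCR10, -0.84 for ATP15, -0.74 for QCR8, -0.73 for COX8, -0.69 for COX12 and -0.65 for SDH4. With libraries H to S alone none of the 40 passed, at a median difference of -0.37 against -0.54 over all libraries.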

How the results depend on the processing

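Counts are of the 40 mRNAs called. Scaling by TMM on mRNA reads gave 36 calls for 42C against GE, 37 for CHX against 42C and 21 for the heat response of xrn1Δ minus wild type. Of all tested mRNAs 68.2%, 66.4% and 40.3% were called, in the same order. In CRAC this scaling gave 0 for eIF4B after 30 s and after 16 min of GE. It gave 0 for Ded1 after 16 min of GE, 7 for Ded1 at 42C and 0 for eIF4A at 42C. The same scaling changed the sign of 25 values of single mRNAs, each a log2 change. At 42C against control ATP1 was at 0.21, ATP4 at 0.38, ATP18 at 0.15, COX4 at 0.19, COX5A at 0.46 and COX9 at 0.37. At 42C against GE ATP20 was at 0.030 and COX4 at 0.0093, and with CHX ATP4 was at -0.55 and ATP18 at -0.15. In ski2Δ with heat ATP1 was at 0.12, ATP4 at 0.45, ATP18 at 0.15, ATP20 at 0.45, COX4 at 0.51, COX5A at 0.50 and COX9 at 0.46. In xrn1Δ with heat ATP2 was at 0.24, ATP3 at 0.26, ATP4 at 0.18, ATP7 at 0.39, ATP14 at 0.15, ATP16 at 0.17, COX8 at 0.075 and COX12 at 0.17. DESeq2 called 1 for ski2Δ against wild type at 42C, 19 for the xrn1Δ heat response, 29, 19 and 8 for eIF4B (GE for 30 s, GE for 16 min and 42C), 3, 3 and 4 for Ded1, 3 and 1 for eIF4A in GE, 3 at 42C and 3 for eIF4B against Ded1.

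A term for the library set gave 0 for ski2Δ against wild type at 42C, and libraries H to S alone gave 0 for it, 11 for xrn1Δ at 42C, 13 for xrn1Δ in control, 0 for the xrn1Δ heat response and 10 for CHX. Ded1 had 8, 3 and 4 calls with a term for library series, 2 after 30 s of GE by cDNA counts and 2 after 16 min with no filter. eIF4A at 42C had 3 with the series term, and eIF4B at 42C had 2 without libraries 23 and 56. The cause of these differences was not tested. With each library left out in turn the counts ran from 11 to 17 for GE, 25 to 27 for 42C, 11 to 17 for 42C against GE, 8 to 15 for CHX, 0 to 5 for ski2Δ and 13 to 16 for xrn1Δ at 42C, 26 to 32 for xrn1Δ in control, 20 to 26 and 25 to 26 for heat in ski2Δ and in xrn1Δ, and 5 to 18 for the xrn1Δ heat response. In CRAC they ran from 0 to 10 and 5 to 12 for eIF4B in GE, 3 to 5 at 42C, 0 to 3, 0 to 2 and 0 to 2 for Ded1, and 0 to 2 for eIF4A at 42C. No paired analysis was possible because the library numbers are not shared between groups. Depth limits CRAC most, with down to 206 reads on the 40 mRNAs in a tagged library.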
